A study of Mus musculus with 20 samples.

Results

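The erythroid lineage genes examined were Alas2, Car1, Car2, Slc4a1, Klf1, Hba-a1 and Hba-a2, 7 of the 24421 genes counted in bulk RNA-seq of mouse bone marrow neutrophils. They were found by their gene symbol, and all 7 had a row in the count files. Of these, 5 had counts in every library, while Hba-a1 and Hba-a2 were listed at 0 in all 20 libraries. The 20 libraries came from 4 groups of 5 female mice: untreated WT, untreated Bmal1Mye-/-, IMQ-treated WT and IMQ-treated Bmal1Mye-/-. IMQ (imiquimod, a Toll-like receptor agonist that drives lupus-like disease) was given as a cream on the ear, 3 times per week for 6 weeks, to mice aged 8 to 10 weeks at the start. WT mice were C57BL/6J, and Bmal1Mye-/- mice carried a floxed Bmal1 and a Cre at LysM (Lyz2), a gene of myeloid cells, so the deletion is directed to neutrophils, monocytes and macrophages and not to erythroid cells. The WT mice carried no Cre, and an effect of the Cre insertion cannot be told apart from that of the deletion. Neutrophils were taken from femurs and tibias by magnetic negative selection, in which other marrow cells are bound by antibodies and removed.

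Red cells arise in the marrow from progenitors that pass through several nucleated erythroblast stages, fill with hemoglobin, expel the nucleus and leave as reticulocytes. Klf1 is the erythroid transcription factor that switches on globin, heme and membrane genes, and it acts through CACCC-type sites, often beside sites for Gata1. Car1 and Car2 encode carbonic anhydrases that convert carbon dioxide to bicarbonate, Alas2 encodes the erythroid form of the first enzyme of heme synthesis, Slc4a1 encodes band 3, the bicarbonate and chloride exchanger that anchors the red cell skeleton, and Hba-a1 and Hba-a2 encode the adult alpha globin chain. These genes mark erythroid cells rather than neutrophils, although Car2 is also made by other cell types, and a neutrophil preparation can hold erythroid cells that negative selection did not remove.

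For Alas2 and Klf1, whose levels are compared within each library later, the stretch from 150 to 55 bases before the RefSeq start is printed here (RefSeq, GRCm38.p6, plus strand for both). Alas2 is at chrX:150547267-150547362 and Klf1 at chr8:84901832-84901927. Capitals mark CACCC and GATA sites, a GATA site being GATA with A or T before it and A or G after it. Both were searched on either strand and did not overlap in these stretches.
Alas2: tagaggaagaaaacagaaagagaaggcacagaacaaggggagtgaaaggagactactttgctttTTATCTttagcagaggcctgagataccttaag
Klf1: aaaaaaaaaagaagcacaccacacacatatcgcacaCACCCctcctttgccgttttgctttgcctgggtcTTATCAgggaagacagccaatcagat
Within the 250 bases before its start, Klf1 held 1 CACCC and 1 GATA site, at 114 and 80 bases. Alas2 held a GATA site at 86 bases and 3 matches to CACCC at 40, 35 and 30 bases, nearer the start than the stretch shown. Of 32851 promoters of this length, 52.0% held CACCC and 26.5% a GATA site, so a match is common and is given as a description. Promoters were found for 4 of the 7 members, Alas2, Klf1, Hba-a1 and Hba-a2.

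Hba-a1 (chr11:32283511-32284465) and Hba-a2 (chr11:32296489-32297298) were at 0 counts in every library of every group. Their coding sequences, 429 bases each, differed at 1 position, written C381T with the Hba-a1 base first and counted from the A of the start codon. The coding bases 351 to 410 of both genes are printed with that position in capitals to show how little a short read has to tell them apart.
Hba-a1: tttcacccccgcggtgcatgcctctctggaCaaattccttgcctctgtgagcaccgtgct
Hba-a2: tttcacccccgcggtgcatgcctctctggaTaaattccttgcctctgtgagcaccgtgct
Of the 50-base windows of the longest coding transcript, the read length the study used, 67.5% of Hba-a1 and 86.9% of Hba-a2 also lay in the other gene. The other 32.5% and 13.1% of the windows occurred in no other gene of that annotation (GENCODE M21), and no library had a count on either gene. The adult beta globins Hbb-bs and Hbb-bt, and the rows Hbb-b1 and Hbb-b2, were likewise at 0 in all 20 libraries. For Hbb-bs and Hbb-bt 65.8% and 58.3% of the windows were shared. Every library had 3431 genes (14.0%) in common at 0.

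A count of 0 allows up to 3 counts, which is 0.0324 to 0.101 CPM (counts scaled to a common library total) from the deepest to the shallowest library, for counting error only and for counted reads rather than for the transcript. Whether red cells or their precursors were absent cannot be read from the adult globins. Hbq1b, a theta globin of the alpha cluster, had 2 to 125 counts per library. The share of reads that did not align uniquely was 4.37% to 6.50% of the reads a file accounts for. It was 6.34% in IMQ-treated WT mouse 3 and 5.75% in IMQ-treated Bmal1Mye-/- mouse 5, the libraries with the highest Slc4a1, but 4.53% in IMQ-treated WT mouse 4, which was also high, and 6.50% in IMQ-treated Bmal1Mye-/- mouse 1, which was not. The share of reads the files list as ambiguous was 0.335% to 0.431%, highest in IMQ-treated WT mouse 4. The part of either share in the globin counts was not tested.

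The 5 members with counts lie at chrX:150547375-150570638 (Alas2, plus strand), chr3:14766216-14808368 (Car1, minus), chr3:14886273-14900770 (Car2, plus), chr11:102348824-102366203 (Slc4a1, minus) and chr8:84901928-84905291 (Klf1, plus) on GRCm38, the assembly behind mm10. Of the 50-base windows of Car1, 14.5% also occur in Gm5843, and none of those of the other 4 members occurs in another gene. Their counts ranged from 61 for Klf1 to 24763 for Slc4a1 in single libraries, so counting error is small beside the spread between mice. Levels are given as CPM scaled by TMM factors, which adjust for differences in library composition, with the libraries named by group and mouse number. CPM carries no correction for gene length.

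The members were a small part of these libraries. Their summed level was 29.7 to 720 CPM, while 11 neutrophil genes (S100a8, S100a9, Camp, Ltf, Retnlg and others) summed to 72880 to 163400 CPM, none of them at 0. The total of counted reads per library was 30782166 to 92613500. Arntl, the name the files use for the deleted Bmal1, had 0.895 to 1.71 CPM in untreated WT and 0.468 to 1.10 CPM in untreated Bmal1Mye-/-, and 0.562 to 1.87 and 0.337 to 1.52 CPM with IMQ. Its log2 fold change between genotypes was −0.90 untreated (edgeR adjusted p = 1) and −0.65 with IMQ (adjusted p = 0.305). By test this gene thus did not separate the labelled genotypes, and the ranges overlapped. Its mean was still lower in Bmal1Mye-/- than in WT, at 0.721 against 1.35 CPM untreated and 0.702 against 1.11 CPM with IMQ.

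Per kilobase of exon, the scale on which genes can be compared, Car2 was the member with the highest mean level in untreated WT, 24.0 ± 11.3 CPM per kilobase (SD, n = 5). Car1 followed with 13.8 ± 7.83, Slc4a1 with 7.01 ± 5.05, Klf1 with 6.71 ± 3.93 and Alas2 with 3.52 ± 1.96. Untreated Bmal1Mye-/- gave the same order, with 25.0 ± 13.2 for Car2, 14.6 ± 8.88 for Car1, 10.6 ± 9.81 for Slc4a1, 7.27 ± 3.97 for Klf1 and 5.07 ± 4.55 for Alas2. With IMQ in WT, Slc4a1 stood first at 35.9 ± 29.1, followed by Car2 at 30.7 ± 23.4, and Alas2 (23.9 ± 17.4) came above Car1 (15.5 ± 22.2) and Klf1 (6.01 ± 5.27). In IMQ-treated Bmal1Mye-/- the levels were 19.1 ± 26.7 for Slc4a1, 14.7 ± 11.4 for Car2, 14.5 ± 17.4 for Alas2, 5.66 ± 2.21 for Car1 and 2.68 ± 1.83 for Klf1. Neighbours in each order differed by less than the SD of the higher level, except Car1 and Klf1 in IMQ-treated Bmal1Mye-/-, and no test was made between genes.

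IMQ treatment raised Alas2, the heme synthesis gene, and on the mean of both genotypes also Slc4a1, while Klf1, Car1 and Car2 did not pass the main test in either genotype. A fit of the Bmal1Mye-/- libraries alone with the mouse number as a block called Klf1 and Car2 as lower there. That fit was added after the data were seen, and the labels state no pairing of mice. The share of all genes called in it was not determined, so these calls have no background. The same block in the fit of all libraries called neither gene there. In neutrophil preparations as bulk samples, fewer erythroid cells and less RNA of a gene per erythroid cell cannot be told apart. The comparison asks what IMQ disease does to the marrow neutrophil transcriptome in each genotype, and here it is read for the erythroid genes that these libraries carry.

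Alas2 in untreated WT was 6.11, 6.81, 7.05, 16.8 and 5.52 CPM in mice 1 to 5, and in IMQ-treated WT it was 27.2, 20.3, 99.3, 106 and 34.3 CPM. All 5 treated WT libraries were above all 5 untreated ones. The log2 fold change was 2.76 (SE 0.75, edgeR adjusted p = 0.0450), a 6.79-fold difference of the group means. In Bmal1Mye-/-, Alas2 was 31.1, 9.49, 2.93, 8.27 and 9.03 CPM untreated and 22.0, 3.38, 21.0, 19.5 and 108 CPM with IMQ. Here the groups overlapped, because untreated mouse 1 was high and treated mouse 2 was low, and the log2 fold change was 1.51 (SE 0.72, edgeR adjusted p = 0.125). Over both genotypes together it was 2.14 (SE 0.52, edgeR adjusted p = 0.00516), and this call held when any 1 of the 20 libraries was left out. The WT call alone held in 7 of those 20 fits, and was lost with the mouse number as a block (2.69, edgeR adjusted p = 0.0745).

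Slc4a1, the band 3 gene, had 19.8, 26.1, 22.7, 78.2 and 24.5 CPM in untreated WT and 75.1, 54.9, 370, 285 and 92.7 CPM in IMQ-treated WT. Only untreated mouse 4 reached into the treated range. The log2 fold change was 2.36 (SE 0.84, edgeR adjusted p = 0.103), which did not pass. In Bmal1Mye-/- the values were 134, 40.4, 6.97, 39.3 and 39.0 CPM untreated and 46.4, 8.58, 40.8, 46.1 and 326 CPM with IMQ, so 4 of 5 treated libraries lay within the untreated range. The log2 fold change was 0.85 (SE 0.80, edgeR adjusted p = 0.447), and without treated mouse 5 it was −0.55. The mean of both genotypes was 1.60 (SE 0.58, edgeR adjusted p = 0.0401). That call held in 9 of the 20 fits with 1 library left out, and was lost without treated Bmal1Mye-/- mouse 5 (log2 fold change 0.90, edgeR adjusted p = 0.169) and with the mouse number as a block (1.32, edgeR adjusted p = 0.132).

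**Figure D1:**
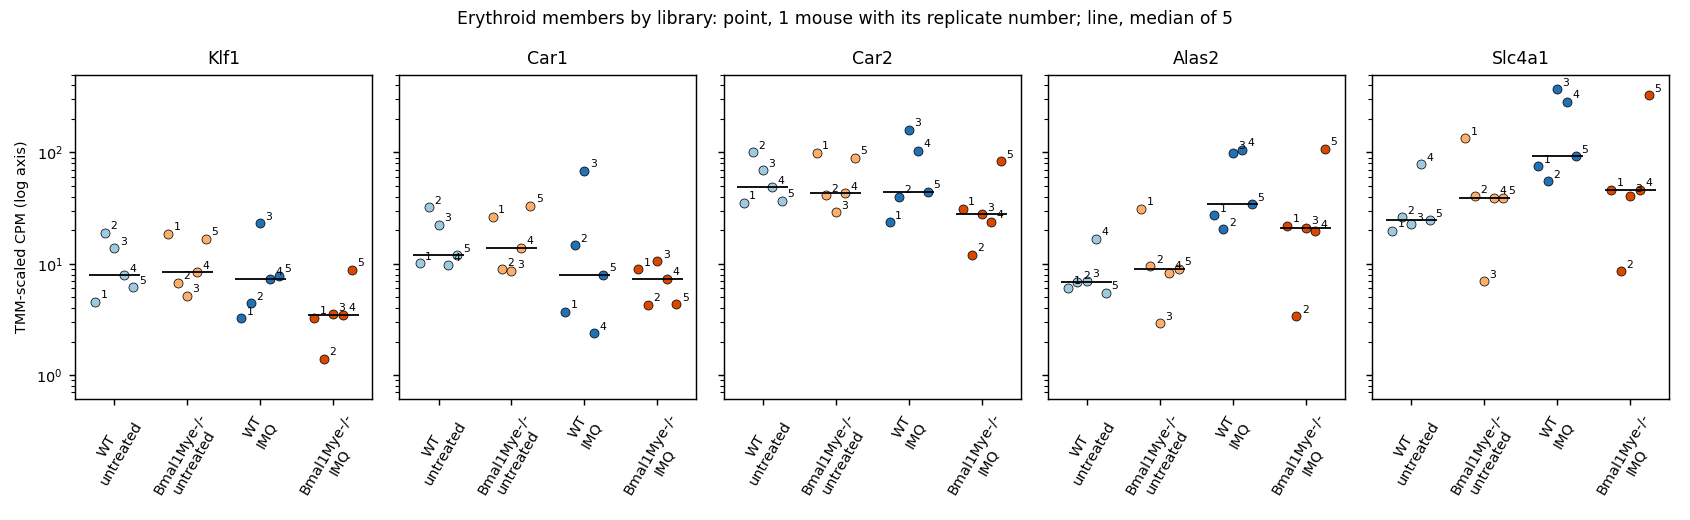
Levels of the 5 members with counts in each of the 20 libraries, as TMM-scaled CPM on a log axis, with 1 point per mouse, its replicate number beside it and a line at the median of 5. Alas2 and Slc4a1 stand higher in IMQ-treated WT than in untreated WT, Klf1 does not, and IMQ-treated Bmal1Mye-/- mouse 5 is apart from its group at 326 CPM of Slc4a1.

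Klf1, the transcription factor, had 4.55, 19.0, 13.7, 7.87 and 6.15 CPM in untreated WT and 3.24, 4.41, 23.2, 7.36 and 7.79 CPM in IMQ-treated WT. The groups overlapped over almost their whole range, with a log2 fold change of −0.16 (SE 0.54, edgeR adjusted p = 0.901). In Bmal1Mye-/- Klf1 was 18.5, 6.78, 5.18, 8.38 and 16.8 CPM untreated and 3.28, 1.40, 3.51, 3.48 and 8.85 CPM with IMQ. Of the 5 treated libraries 4 were below all untreated ones, and mouse 5 was within their range. The log2 fold change was −1.43 (SE 0.56, edgeR adjusted p = 0.0654). It passed in the blocked fit of those 10 libraries (−1.48, edgeR adjusted p = 0.0106) and by DESeq2 (−1.47, adjusted p = 0.0238). Over both genotypes it was −0.80 (SE 0.39, edgeR adjusted p = 0.119).

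Car1 was 10.1, 32.1, 22.4, 9.82 and 11.9 CPM in untreated WT and 3.68, 14.6, 68.1, 2.38 and 7.97 CPM in IMQ-treated WT. The treated WT mice thus held both the lowest Car1 value (mouse 4) and the highest (mouse 3) of all 20 libraries, and the log2 fold change of 0.16 (SE 0.68, edgeR adjusted p = 0.919) became −1.28 without mouse 3. In Bmal1Mye-/- the values were 26.5, 8.91, 8.55, 13.9 and 33.2 CPM untreated and 8.89, 4.28, 10.5, 7.31 and 4.34 CPM with IMQ. These overlapped in treated mice 1 and 3, and the log2 fold change was −1.37 (SE 0.69, edgeR adjusted p = 0.148). Without treated WT mouse 3, whose spread enters the shared fit, Car1 and Klf1 passed as lower in Bmal1Mye-/- (−1.36 and −1.42, edgeR adjusted p = 0.0434 and 0.0301) and on the mean of both genotypes (−1.32 and −1.13, edgeR adjusted p = 0.0122 and 0.0216).

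Car2 had 35.2, 101, 69.0, 48.6 and 36.9 CPM in untreated WT and 23.7, 40.0, 160, 104 and 44.5 CPM in IMQ-treated WT. The groups overlapped, with a log2 fold change of 0.36 (SE 0.53, edgeR adjusted p = 0.741). In Bmal1Mye-/- it was 99.8, 41.1, 29.0, 43.2 and 90.1 CPM untreated and 31.0, 12.0, 27.8, 23.8 and 83.5 CPM with IMQ. There, 3 of 5 treated mice were below every untreated one, and the log2 fold change was −0.77 (SE 0.53, edgeR adjusted p = 0.283). In the blocked fit of those 10 libraries it passed (−0.89, edgeR adjusted p = 0.0460).

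Of the 5 members tested, 1 was called in WT, as higher, where 3.95% of all 14030 genes tested were called and 2.34% were called as higher. In Bmal1Mye-/- 0 were called, where 23.5% of all genes were, with 2 (Alas2 and Klf1) at an unadjusted p under 0.05 (39.3% of all genes), 1 called by DESeq2 (Klf1) and 0 by limma. On the mean of both genotypes 2 were called, both as higher, against 32.7% of all genes and 18.7% as higher. Groups without overlap were found for 1 member in WT, where 6.43% of genes tested had none, and for 0 in Bmal1Mye-/-, where 20.1% had none. With 5 members, a share of calls can be read only coarsely against these backgrounds. The median log2 fold change of the 5 was 0.36 in WT and −0.77 in Bmal1Mye-/-, beside 0.03 and 0.02 over all genes. In Bmal1Mye-/- the deviations of same-numbered untreated and treated mice correlated at 0.128 to 0.426, which does not settle whether the numbers pair them. A fit of those 10 libraries with the mouse number as a block called 2 members as lower, Klf1 and Car2. The block within the fit of all 20 libraries called 0 members in Bmal1Mye-/-. Shares of all genes were determined for the main edgeR fit only, so calls in the blocked fits and by DESeq2 have none beside them.

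**Figure D2:**
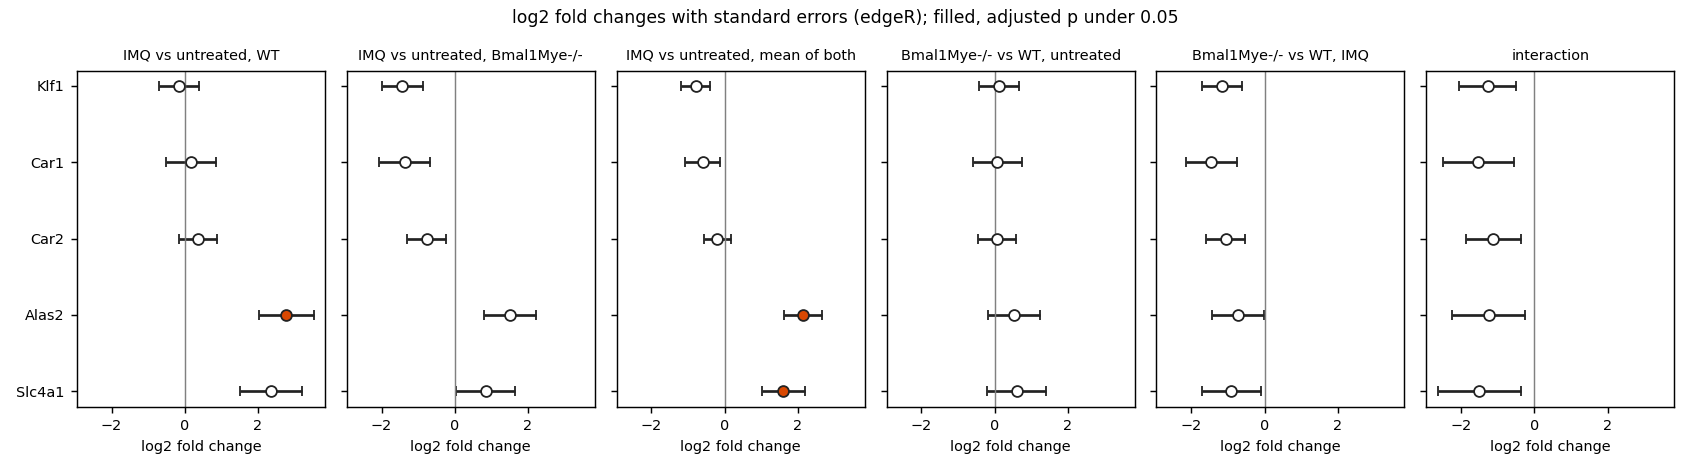
log2 fold changes of the 5 members with their standard errors from edgeR, 1 panel for each comparison, with filled points where the adjusted p was under 0.05. Filled points are Alas2 in WT (2.76) and Alas2 and Slc4a1 on the mean of both genotypes (2.14 and 1.60), and in the last panel but 1 and the last, IMQ-treated genotypes and the interaction, all 5 points lie below 0.

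Between untreated genotypes no difference was detected for any member. The log2 fold changes of Bmal1Mye-/- against WT were 0.53 for Alas2 (SE 0.71), 0.08 for Car1 (SE 0.68), 0.06 for Car2 (SE 0.53), 0.60 for Slc4a1 (SE 0.80) and 0.12 for Klf1 (SE 0.54), each with an edgeR adjusted p of 1. The values above show that every member's ranges overlapped between the untreated groups. With edgeR 0 members were called, against 0.207% of all genes, with 0 at an unadjusted p under 0.05 (2.19% of all genes) and 0 by DESeq2 or limma. All 5 turned below 0 when untreated Bmal1Mye-/- mouse 1, the highest of its group in 4 members, was left out, with values of −0.19 to −0.10.

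Under IMQ all 5 members had negative log2 fold changes in Bmal1Mye-/- against WT, and none passed the test. The log2 fold changes were −1.45 for Car1 (SE 0.69, edgeR adjusted p = 0.251), −1.16 for Klf1 (SE 0.55, adjusted p = 0.251), −1.06 for Car2 (SE 0.53, adjusted p = 0.258), −0.91 for Slc4a1 (SE 0.80, adjusted p = 0.470) and −0.72 for Alas2 (SE 0.70, adjusted p = 0.512). With edgeR 0 members were called, against 0.292% of all genes, with 2 (Car1 and Klf1) at an unadjusted p under 0.05 (19.9% of all genes) and 0 by DESeq2 or limma. A negative sign was found for 46.9% of all genes tested. Single libraries carried much of the size of these differences: Car1 was −0.0025 without treated WT mouse 3, and Slc4a1 was −2.30 without treated Bmal1Mye-/- mouse 5.

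The interaction, the difference between the IMQ effects in the 2 genotypes, was negative for all 5 members, from −1.53 for Car1 (SE 0.97) to −1.13 for Car2 (SE 0.75). The edgeR adjusted p values were 0.640 to 0.647. Of the members 0 were called, as were 0% of all genes, with 0 members at an unadjusted p under 0.05 (5.14% of all genes) and 0 by DESeq2 or limma. That Alas2 passed in WT and not in Bmal1Mye-/- is therefore no difference between the genotypes by test.

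Within a library, the members did not keep a fixed proportion, and the proportion differed with IMQ. These ratios were chosen after the values had been seen and are given with no test. Alas2 over Klf1 was 1.34, 0.358, 0.513, 2.14 and 0.897 in untreated WT and 1.69, 1.40, 0.565, 0.987 and 0.538 in untreated Bmal1Mye-/-. With IMQ it was 8.38, 4.62, 4.28, 14.4 and 4.40 in WT and 6.70, 2.41, 5.97, 5.62 and 12.2 in Bmal1Mye-/-. All 10 treated libraries were above all 10 untreated ones, in both genotypes, while neither gene separated the treatments by itself across genotypes. How often other pairs of genes do so was not determined, so this separation has no background.

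Slc4a1 over Klf1 went the same way, at 1.37 to 9.93 in untreated WT and 11.9 to 38.7 in treated WT, which did not overlap. In Bmal1Mye-/- it was 1.34 to 7.25 untreated and 6.12 to 36.8 treated, and only treated mouse 2, the lowest of its group in all 5 members, was within the untreated range. Car2 stayed closer to Klf1, at 5.03 to 7.74 and 5.15 to 6.07 in the untreated groups and 5.72 to 14.1 and 6.84 to 9.45 in the treated ones. The treated and untreated ranges of Car2 over Klf1 did not overlap in Bmal1Mye-/-, while in WT they did. Slc4a1 over Alas2 was 3.22 to 4.65 and 2.38 to 4.75 untreated, and 2.68 to 3.73 and 1.94 to 3.01 treated, in WT and Bmal1Mye-/- respectively. This is the steadiest pair, although the genes span 53.1-fold (Slc4a1) and 36.9-fold (Alas2) over the 20 libraries.

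Car1 parted furthest from the others in 2 libraries. In treated WT mouse 4, Slc4a1 was 120 times Car1, and in treated Bmal1Mye-/- mouse 5 it was 75.0 times, while in the untreated libraries it was 0.813 to 7.97 times. Both mice were high in Alas2 (106 and 108 CPM) and low in Car1 (2.38 and 4.34 CPM). Treated WT mice 1 and 5 were also above the untreated range, with Slc4a1 at 20.4 and 11.6 times Car1. Treated WT mouse 3 was high in all 5 members, the highest of the 20 libraries in 4 of them, and in it Slc4a1 was 5.43 times Car1.

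**Figure D3:**
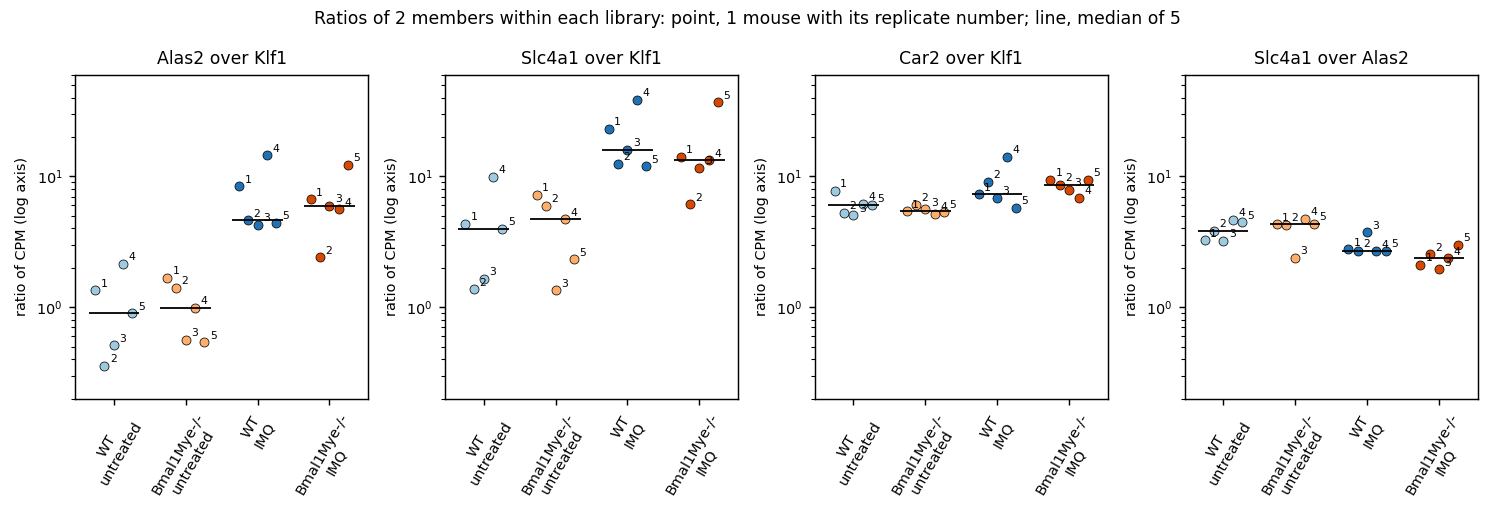
Ratios of the CPM of 2 members within each library, on a log axis, with 1 point per mouse, its replicate number and a line at the median of 5. For Alas2 over Klf1 all treated libraries (2.41 and above) lie above all untreated ones (2.14 and below). Car2 over Klf1 and Slc4a1 over Alas2 move within a few-fold. In Bmal1Mye-/-, Car2 over Klf1 is also higher in all treated libraries (6.84 to 9.45) than in all untreated ones (5.15 to 6.07).

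The members' deviations from their group means, in log2 CPM over the 20 libraries, were compared in all 10 pairs. Alas2 and Slc4a1 moved most closely, with Pearson r = 0.98 (adjusted permutation p = 0.0001) and Spearman rho = 0.93 (permutation p = 3e-05). Car2 and Klf1 followed with r = 0.95 and rho = 0.94 (adjusted permutation p = 0.0001 for both). Without the 2 libraries farthest from the median these r were 0.98 and 0.92. Car1 was not shown to follow Alas2 (r = 0.15, permutation p = 0.532, and rho = 0.18, permutation p = 0.482) or Slc4a1 (r = 0.18, permutation p = 0.446, and rho = 0.19, permutation p = 0.462), while with Klf1 it gave r = 0.65 (permutation p = 0.00654, adjusted 0.00934) and rho = 0.60 (permutation p = 0.0134). With Car2, Car1 gave r = 0.50 (permutation p = 0.0649, adjusted 0.0811) and rho = 0.52 (permutation p = 0.0382, adjusted 0.0477), and r = 0.59 without the 2 farthest libraries. Alas2 and Slc4a1 were joined to Car2 and Klf1 at r = 0.73 to 0.81, and Car1 was closer to Klf1 and Car2 than to Alas2 and Slc4a1, a difference that was not tested. Libraries share the preparation they come from, and the numbers describe which genes vary together among mice.

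By the rule that ranks all other tested genes on their correlation with the members' mean standardized level over 20 libraries, the 10 most alike were Tspan33 (r = 0.98), Ank1 (0.96), Gm15816 (0.96), Rhag (0.95), Add2 (0.95), Btnl10 (0.95), Sptb (0.95), Cldn13 (0.94), Tspo2 (0.94) and 1300017J02Rik (0.94). Ank1, Add2 and Sptb encode ankyrin, adducin and spectrin of the red cell skeleton, and Rhag a membrane partner of the Rh proteins. Of these 10, 5 are on a list of 49 other erythroid genes, and of the top 100, 33 are. The median r was 0.83 over those 49 genes and 0.01 over all 14025 genes compared.

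The wider erythroid list held 58 genes in 6 roles, of which 57 were in the files and 49 passed the filter on low counts. In WT, IMQ raised 2 of the 49 and lowered 0, where 2.34% of all genes were called as higher, so the share is close to that of all genes. Both are among the 11 late maturation genes. Bpgm, which makes the bisphosphoglycerate that tunes oxygen release, was 5.58 to 8.78 CPM untreated and 12.0 to 71.0 CPM treated (log2 fold change 2.01, SE 0.53, edgeR adjusted p = 0.0406), with no overlap. Xpo7, a nuclear exporter linked to enucleation, was 29.9 to 38.2 and 36.4 to 148 CPM (1.13, SE 0.31, edgeR adjusted p = 0.0450). In Bmal1Mye-/- 0 were higher and 1 was lower (9.04% of all genes), Ppox of heme synthesis, with 89.8 to 99.7 CPM untreated and 44.6 to 79.8 CPM treated (−0.52, SE 0.15, edgeR adjusted p = 0.0186). Ppox is used by all cells that make heme.

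On the mean of both genotypes 8 of the 49 rose (18.7% of all genes) and 1, Ppox, fell (14% of all genes). Neither share was above that of all genes. The log2 fold change of Ppox was −0.31 (SE 0.10, edgeR adjusted p = 0.0253). Late maturation held 5 of the 8, among them Bpgm (1.65, adjusted p = 0.00323), Xpo7 (0.82, adjusted p = 0.00793) and Trim10 (1.71, adjusted p = 0.0198), all by edgeR. The others were Tfrc, the transferrin receptor that takes up iron (1.24, edgeR adjusted p = 0.00861), Tmod1, a capper of actin in the red cell skeleton (0.38, edgeR adjusted p = 0.0297), and Hbq1b (1.51, edgeR adjusted p = 0.0481). None of the 8 transcription factor and receptor genes passed in any comparison, and 7 of the 8 were negative on the mean of both genotypes (median −0.25), where 47.7% of all genes were negative. Nfe2, Ldb1 and Lmo2, the most abundant of them, are also expressed in myeloid cells, as are Slc25a37, Bnip3l and Mkrn1, so the level of these genes is not erythroid alone. The rising genes named here followed the members' mean level less closely than the list's median r of 0.83. Their r was 0.49 for Xpo7, 0.54 for Tmod1, 0.63 for Bpgm, 0.69 for Tfrc and 0.79 for Trim10 and Hbq1b. Whether their rise is erythroid alone was not tested.

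By role, the median log2 fold change with IMQ in WT was 0.73 for late maturation (11 of 11 positive), 0.67 for membrane and cytoskeleton (15 of 16 positive), 0.32 for heme synthesis (5 of 7), 0.25 for iron uptake (4 of 6) and 0.06 for transcription factors and receptor (5 of 8). In Bmal1Mye-/- the same medians were 0.10, −0.25, −0.15, −0.18 and −0.60. Over the 49 genes, 41 were positive in WT and 31 were negative in Bmal1Mye-/-, where 53.2% of all genes were positive and 48.2% negative. Genes of 1 lineage share the libraries they are measured in, so these signs are not independent.

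**Figure D4:**
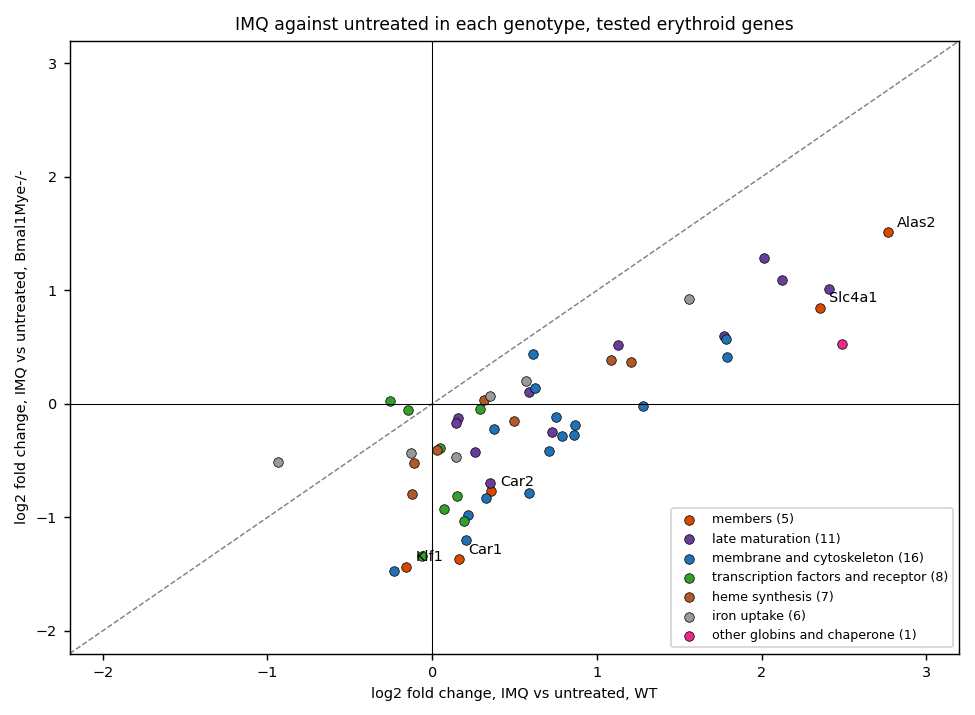
log2 fold change with IMQ in WT (x axis) against that in Bmal1Mye-/- (y axis) for the 54 tested erythroid genes, coloured by role, with the number tested in brackets and a dashed line of equal change. Of the 54, 51 lie below the line, and the late maturation genes lie to the right together with Alas2 and Slc4a1, which were 2.76 and 2.36 in WT.

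Between the IMQ-treated genotypes 46 of the 49 other erythroid genes had a negative log2 fold change in Bmal1Mye-/-, with a median of −0.70 beside 0.03 over all genes. None was called by edgeR, DESeq2 or limma, and 5 had an unadjusted p under 0.05 (19.9% of all genes). A negative sign was found for 46.9% of all genes. Sptb had −0.87 (edgeR adjusted p = 0.322) and Aqp1 −1.15 (edgeR adjusted p = 0.257). The interaction was negative for 46 of the 49 with a median of −0.73, where 48.8% of all genes were negative. For it 0 were called, with 2 at an unadjusted p under 0.05 (5.14% of all genes). In the untreated genotypes 40 of the 49 were positive (median 0.12), where 48.7% of all genes were. Between them 0 were called, with 0 at an unadjusted p under 0.05 (2.19% of all genes).

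Genes of other marrow cells moved with the same comparisons. On the mean of both genotypes, where 14% of all genes were called as lower and 18.7% as higher, IMQ lowered 9 of 10 megakaryocyte and platelet genes (median −1.27), 6 of 8 tested B lineage genes (median −1.77) and 3 of 5 tested T and NK cell genes (median −1.32), and raised 4 of 8 monocyte genes (median 0.99). In Bmal1Mye-/- alone 5 of the 8 monocyte genes rose (median 1.75), where 23.5% of all genes were called, and their sum was 777 to 1002 CPM untreated and 653 to 2514 CPM treated. Of 9 genes of the macrophages that surround erythroblasts, 3 rose on the mean of both genotypes (the complement genes C1qa, C1qb and C1qc), and the 9 were 5 positive and 4 negative with a median of 0.19. Their summed level was 113 to 130 CPM in untreated WT and 129 to 148 CPM in treated WT, and 134 to 162 and 102 to 143 CPM in Bmal1Mye-/-, with none at 0 in every library. In IMQ-treated Bmal1Mye-/- against WT, 3 of 9 eosinophil genes were called as higher, where 0.292% of all genes were called, and their sum was 43.8 to 213 CPM against 21.7 to 42.8 CPM. Of 5 tested basophil and mast cell genes 0 were called there, with 5 at an unadjusted p under 0.05 (19.9% of all genes) and a median of 1.55. The 11 neutrophil genes had a median of −0.31 there, with 10 of 11 negative and 0 called, and their lowest sum was 72880 CPM in treated Bmal1Mye-/- mouse 1. The part of these cell types in the members' values was not tested.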

How the data were processed

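Marrow neutrophil RNA of 20 mice was sequenced by the authors as poly(A) libraries on a NovaSeq or a NextSeq, with the instrument of each library not given in the sources used here, so no batch could be set. The deposited files hold raw read counts per gene, with no normalization. The submitters' processing notes name STAR 2.7.8a, HTSeq 2.0.1, bcl2fastq and mm10, whereas the study's methods name a different aligner. The annotation and strand setting of the counting are not given in the sources used here, so overlapping and antisense genes could not be separated. Counts were fitted with edgeR 4.0.16 (R 4.3.3), as 1 quasi-likelihood model of the 4 groups, with TMM factors (0.855 to 1.38), edgeR's filter on low counts (14030 genes kept) and Benjamini-Hochberg adjustment over all genes tested, at 0.05. Groups and mouse numbers came from the labels. The main fit was tested on simulated counts for the IMQ comparison in WT only. Of 200 genes changed, it recovered 161 at a log2 fold change of 2 and 188 at 3, with 6 and 11 unchanged genes called. The simulated spread followed the trend over all genes and not that of the members. Log2 CPM used a prior count of 2. Members' correlations were permuted within groups. Members and gene lists were chosen with earlier results of these data known. Named genes of the wider list were, per role, the 3 most abundant and up to 3 others called. Whether mouse numbers pair libraries was examined from the correlation, over genes, of deviations from group means. For Bmal1Mye-/- untreated and treated mice all 5 correlations were above 0.1 (0.128 to 0.426), and a blocked fit is given for that comparison. Mice of different numbers were not compared, the labels state no pairing, and the WT libraries had no blocked fit of their own. Alternatives were RLE factors, library size alone, no filter, at least 10 counts in every library, the block, only the groups compared, limma 3.58.1 on log2(CPM + 0.1), DESeq2 1.42.0, Hba-a1 and Hba-a2 summed, and each library left out. Others were added after the data were seen, the blocked fit of 10 libraries and the removal of 2 libraries together. Ly6g, Trac and Ahsp were not analysed here. Some genes that the naming rule selected are not reported here.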

Additional observations from a re-analysis of the deposited data

Results flagged for a closer look

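In 10 of the 20 combinations of member and group, 1 library stood apart from the other 4 by more than Dixon's critical value of 0.71 (the gap to the nearest library as a share of the group's range). Chance alone gives about 1 in 20 for values that spread symmetrically, which CPM need not do. On log2 CPM, a scale added after the data were seen, 2 of the 10 stayed above the critical value, Alas2 and Slc4a1 of untreated WT mouse 4 (0.781 and 0.799 of the range), so the number of libraries apart depends on the scale. The 10 fall on 4 mice, and Alas2 and Slc4a1 vary together, so they are not independent.

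IMQ-treated Bmal1Mye-/- mouse 5 was apart in 4 members, with 108.2 CPM of Alas2 (nearest 21.98), 83.47 CPM of Car2 (nearest 31.02), 325.8 CPM of Slc4a1 (nearest 46.42) and 8.855 CPM of Klf1 (nearest 3.514). Untreated Bmal1Mye-/- mouse 1 was apart with 31.14 CPM of Alas2 (nearest 9.486) and 133.9 CPM of Slc4a1 (nearest 40.38). Untreated WT mouse 4 was apart with 16.84 CPM of Alas2 (nearest 7.046) and 78.22 CPM of Slc4a1 (nearest 26.11). IMQ-treated WT mouse 3 was apart with 68.12 CPM of Car1 (nearest 14.6) and 23.2 CPM of Klf1 (nearest 7.786). In all 10 the library apart was the highest of its group.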

How the results depend on the processing

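Over the 1020 alternative fits of the 35 log2 fold changes of members, 943 kept direction and side of the threshold, 34 changed sign, 31 lost a call and 12 gained 1. The alternative that summed Hba-a1 and Hba-a2 could not differ from the main fit, because both genes were at 0 in every library. It is counted among the 943 and in each tally of 29 below. The rise of Alas2 on the mean of both genotypes was called in all 29 of its alternatives (1.60 to 2.49, adjusted p 0.000430 to 0.0186). The WT rise of Alas2 was called in 12 of 29 (2.41 to 3.18), and Slc4a1 on the mean in 15 of 29 (0.90 to 1.96). The causes were not tested.

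Members called with IMQ in WT (main count 1) were 0 with library size alone, no filter, the replicate block or limma, and 2 with DESeq2. In Bmal1Mye-/- (main count 0) they were 1 with only the groups compared (Car1, −1.35) and with DESeq2, and 2 with those groups and a block. On the mean (main count 2) they were 1 with the block, limma, or without treated Bmal1Mye-/- mice 5 and 2 together. Wider erythroid genes called in WT (main count 2) were 0 with library size alone, no filter, the block, only the groups compared or limma, 1 with at least 10 counts in every library and 8 with DESeq2. In Bmal1Mye-/- (main count 1) they were 2 with the block, 3 with only the groups compared, 7 with those groups and a block, 4 with DESeq2 and 0 without both mice. On the mean (main count 9) they were 5 with the block, limma or without both mice. The share of all genes called was not determined for these alternatives.

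Signs turned for Car1 in WT with the block (−0.38) and limma (−0.71), for Slc4a1 in Bmal1Mye-/- without both mice (−0.20), and for Alas2 between genotypes over both treatments with library size alone (0.0103). That comparison called 0 members, as did 0.314% of all genes.

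Leaving out 1 library each, members called ranged from 0 to 1 in WT, 0 to 2 in Bmal1Mye-/- and 1 to 3 on the mean, and wider genes from 0 to 7, 0 to 3 and 4 to 14, and from 0 to 1 between IMQ-treated genotypes. Wider calls were 7 in WT without treated mouse 5 of either genotype, and on the mean 4 without treated Bmal1Mye-/- mouse 5 and 14 without mouse 2. With IMQ in WT, Car1 ranged from −1.28 to 0.50, Car2 from −0.12 to 0.63 and Klf1 from −0.85 to 0.17, each lowest without treated mouse 3. Slc4a1 in Bmal1Mye-/- ranged from −0.55 to 1.57. Between untreated genotypes Alas2 ranged from −0.18 to 0.92, Car1 from −0.27 to 0.42, Car2 from −0.19 to 0.35, Klf1 from −0.14 to 0.46 and Slc4a1 from −0.12 to 1.14. Over both treatments the genotype difference ranged from −0.63 to 0.10 for Alas2, −0.86 to 0.0358 for Car1 and −0.85 to 0.12 for Slc4a1. The WT call of Alas2 was lost (adjusted p up to 0.118) without any untreated WT mouse, treated WT mice 1 to 4, untreated Bmal1Mye-/- mice 2, 4 and 5, or treated mouse 3. The mean call of Slc4a1 was lost (adjusted p up to 0.169) without untreated WT mice 1, 2, 3 and 5, untreated Bmal1Mye-/- mice 2 to 5, treated WT mice 3 and 4, or treated Bmal1Mye-/- mouse 5. Alas2 passed in Bmal1Mye-/- without treated mouse 2 (1.83), and Klf1 without treated mouse 5, there (−1.92) and on the mean (−1.04).

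With the replicate block, the WT call of Alas2 (2.69, edgeR adjusted p = 0.0745) and the mean call of Slc4a1 (1.32, edgeR adjusted p = 0.132) were lost, and no other call of a member changed in the fit of all libraries. Same-numbered deviations correlated at 0.0728 to 0.384 for WT untreated and treated mice, −0.441 to 0.206 for untreated genotypes and −0.497 to 0.343 for treated genotypes, so not every pair was above 0.1 in these comparisons. In WT 4 of 5 were, and pairing is undecided there and in Bmal1Mye-/-.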
